A study of Homo sapiens with 6 samples.

Results

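The genes encoding the proteasome were examined in chromatin accessibility data from U937, an established human monocytic line derived from a histiocytic lymphoma. Members were the protein-coding genes on chromosomes 1-22 and X whose symbols begin with PSMA, PSMB, PSMC, PSMD, PSME, PSMF or PSMG and a number, without PSMB8 and PSMB9. This gave 48 of 19974 protein-coding genes. The symbols also admitted PSMC3IP, a recombination cofactor, and PSME3IP1, a partner of an activator, which are not proteasome subunits, so counts are also given for the other 46. The 46 still include assembly factors such as PSMD5, PSMD9 and PSMG1, and the inhibitor PSMF1. Accessibility was measured by ATAC-seq, which reads where a transposase can cut into chromatin and leave its adapters. The series held 3 control lines carrying control plasmids and 3 independent clones, called ΔNSPs, in which the serine proteases CTSG, ELANE and PRTN3 had been depleted together. Cells of both groups were grown under geneticin selection, treated with DNase and frozen in a medium with DMSO before the assay. Each clone is 1 line, so differences between clones are differences between 3 single lines.

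The proteasome degrades proteins marked with ubiquitin. Its core particle is a barrel of outer alpha rings, which gate the entrance, and inner beta rings, which hold the peptidase sites; a regulatory particle of ATPases and non-ATPase subunits binds, deubiquitinates and unfolds the substrate. Activators can replace that cap, dedicated chaperones assemble the core, and in immune cells interferon-induced beta subunits replace the constitutive catalytic ones. The transcription factor NFE2L1 drives many of these genes together through antioxidant response elements when proteasome activity falls short.

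A gene-end peak is a listed interval that touches the 1000 bp on either side of an annotated gene end on build GRCh38. Each library had its own peak list, whose fold enrichment, −log10 p and −log10 q for each peak were the authors' own. A list gives no value where no peak was called, so genes were compared by presence of a peak. The lists of clones 1, 2 and 3 held 14262, 24981 and 2188 peaks on chromosomes 1-22, X and Y, and those of control lines 1, 2 and 3 held 13, 4 and 2. Read totals were not given, so depth was unknown. The lowest −log10 q was 2.00 to 2.07 in the 6 lists, but the lowest −log10 p was 4.86 to 5.75 in the clones and at least 7.45 in the control lines. Over all protein-coding genes the group means of log10(genes with a gene-end peak + 1) differed by 3.49 (exact two-sided permutation test, p = 0.1, n = 3 per group), the smallest p that 3 libraries against 3 allow. No single gene can go below that p either. Of 10 monocytic marker genes, ITGAM had such a peak in 2 clones and 5 others in 1 clone, so that 10.0% were called in more than 1 clone, against 23.3% of all genes. SPI1, LYZ, FCGR1A and MPO had none in any library. Among markers of other lineages, the erythroid KLF1 had one in all 3 clones, the T cell gene CD3E in 2 and the B cell gene CD79A in 1, and the other B cell, T cell, erythroid and epithelial genes looked at had none. Of the depleted genes, CTSG had one in clone 2 alone and ELANE and PRTN3 had none.

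Proteasome genes carried gene-end peaks in the clones and in no control line. In clone 1 a peak was listed at 32 of 48 members (66.7%, against 39.1% of all protein-coding genes). In clone 2 it was 19 of 48 (39.6%, against 29.6% of all), and in clone 3 it was 7 of 48 (14.6%, against 6.55%). At least 1 clone had a peak at 36 members (75.0%, against 46.6% of all genes). Members with a peak in 2 or more clones, and none in the control lines, numbered 17 (35.4%, against 23.3%), and in all 3 clones at 5 members (10.4%, against 5.40%). The other 46 genes, without PSMC3IP and PSME3IP1, gave 31, 18 and 7 in clones 1, 2 and 3 and 16 in at least 2 clones (34.8%). In control lines 1, 2 and 3 the count was 0 of 48; there the share over all genes was 0.00501% in control line 1, from 1 gene, and 0 in the other two lists. An empty entry in a control line was thus shared with nearly every other gene, and the difference between groups at the members cannot be told apart from the length of the lists. The assay was on bulk cells, so fewer cells with an open site and a less open site in each cell cannot be told apart.

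**Figure D1:**
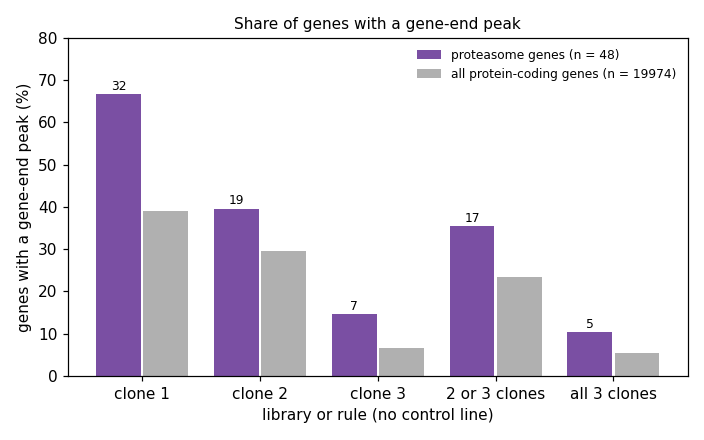
Bars show the percentage of 48 proteasome genes (purple, with the number of genes above) and of 19974 protein-coding genes (grey) that had a gene-end peak in each clone, in 2 or 3 clones, or in all 3. The proteasome share is the higher bar in each pair, from 66.7% against 39.1% in clone 1 to 14.6% against 6.55% in clone 3; no control line had a peak at a member.

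With each clone's list cut to its 2188 highest peaks by −log10 q, the members with a peak numbered 4, 6 and 7 in clones 1, 2 and 3. In clone 1 the members' share was then 8.33%, below the 9.53% of all genes, while in clones 2 and 3 it was 12.5% against 5.31% and 14.6% against 6.55%. In clone 1 the higher share of the members was thus not seen among the highest peaks.

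More members were called in clone 1 than in clone 2, although the list of clone 2 was longer. All protein-coding genes had the same order, with 39.1% called in clone 1 and 29.6% in clone 2. Clone 1 alone had a peak at 15 members, clone 2 alone at 3 (PSMA7, PSMC1 and PSMD1) and clone 3 alone at 1 (PSMB2). Clones 1 and 2 shared 11 members, clones 1 and 3 shared PSMD9, and no member had one in clones 2 and 3 without clone 1. These splits were not counted over all genes, so they are not set against a general share. At each of the 17 members called in 2 or more clones, the peaks of at least 1 pair of clones overlapped by 1 bp or more. That count rested on clones 1 and 2: it was 5 without clone 1, 6 without clone 2 and 16 without clone 3, when both remaining clones had to have the peak. The count in every clone, 5 of 48 with all 3, was also 16 without clone 3. Without clones 1, 2 and 3 in turn, 5.63, 6.21 and 22.3% of all genes had the peak in both remaining clones.

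**Figure D2:**
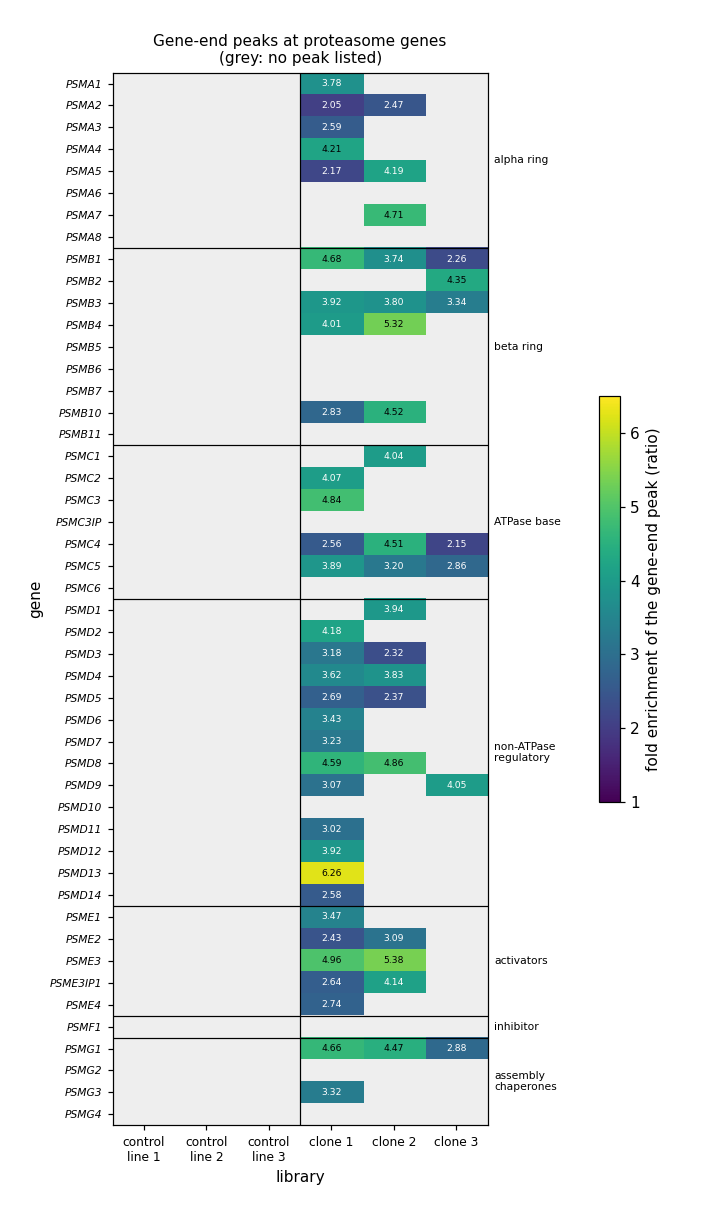
Rows are the 48 proteasome genes, grouped by role, and columns are the 6 libraries; each coloured cell gives the fold enrichment (ratio) of the member's gene-end peak of highest −log10 q, and grey marks that no peak was listed. The control columns are empty, PSMB1, PSMB3, PSMC4, PSMC5 and PSMG1 are filled in all 3 clones, and PSMB5, PSMB6 and PSMB7 are empty throughout.

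Every clone had a gene-end peak at 5 members, which were PSMG1, PSMC4, PSMB3, PSMB1 and PSMC5. Promoter sequences (RefSeq, GRCh38.p14; 250 bases before the listed start and 50 from it on) are shown for the 4 of them that the promoter table holds, since these are the starts near which every clone had a peak. Capitals mark bases inside a peak of at least 2 clones, and each sequence runs 5′ to 3′ on the strand of its gene. PSMG1 is chr21:39183402-39183701 (minus strand), PSMC4 is chr19:39970915-39971214 (plus), PSMB3 is chr17:38752491-38752790 (plus), and PSMC5, at the more downstream of its listed starts, is chr17:63827471-63827770 (plus).
PSMG1: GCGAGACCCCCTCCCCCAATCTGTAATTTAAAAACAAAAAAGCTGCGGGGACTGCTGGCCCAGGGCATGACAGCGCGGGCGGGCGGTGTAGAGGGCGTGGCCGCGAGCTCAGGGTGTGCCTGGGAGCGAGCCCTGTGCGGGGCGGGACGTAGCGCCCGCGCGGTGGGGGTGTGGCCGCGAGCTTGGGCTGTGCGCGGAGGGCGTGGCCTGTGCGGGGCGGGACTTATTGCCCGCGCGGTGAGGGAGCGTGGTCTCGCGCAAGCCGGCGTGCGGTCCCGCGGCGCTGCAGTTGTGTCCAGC
PSMC4: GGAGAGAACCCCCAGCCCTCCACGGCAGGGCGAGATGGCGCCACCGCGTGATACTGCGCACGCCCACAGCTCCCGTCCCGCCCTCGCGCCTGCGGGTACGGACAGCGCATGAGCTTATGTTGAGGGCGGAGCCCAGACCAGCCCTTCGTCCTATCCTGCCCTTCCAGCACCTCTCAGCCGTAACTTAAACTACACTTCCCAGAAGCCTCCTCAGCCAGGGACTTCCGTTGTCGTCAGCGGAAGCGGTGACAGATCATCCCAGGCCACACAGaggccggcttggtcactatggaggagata
PSMB3: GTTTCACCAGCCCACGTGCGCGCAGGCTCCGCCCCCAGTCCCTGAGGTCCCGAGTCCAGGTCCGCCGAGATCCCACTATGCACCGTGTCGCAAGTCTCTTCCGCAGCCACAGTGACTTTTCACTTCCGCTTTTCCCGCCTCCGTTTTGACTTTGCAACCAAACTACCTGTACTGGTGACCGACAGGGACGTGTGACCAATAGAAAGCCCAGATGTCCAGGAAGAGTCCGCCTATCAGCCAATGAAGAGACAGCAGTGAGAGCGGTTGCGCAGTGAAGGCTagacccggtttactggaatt
PSMC5: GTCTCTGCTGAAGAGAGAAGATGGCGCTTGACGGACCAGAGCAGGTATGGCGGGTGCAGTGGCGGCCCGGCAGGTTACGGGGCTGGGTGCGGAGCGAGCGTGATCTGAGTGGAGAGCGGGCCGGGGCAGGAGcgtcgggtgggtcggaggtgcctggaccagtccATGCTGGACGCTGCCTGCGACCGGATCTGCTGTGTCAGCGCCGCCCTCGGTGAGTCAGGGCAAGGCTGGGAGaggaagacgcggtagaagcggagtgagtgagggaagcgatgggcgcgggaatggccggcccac
In PSMG1, PSMC4 and PSMB3, 235, 203 and 186 of the 300 bases lay inside a peak of all 3 clones. In PSMC5 no base did, since the peaks of clones 2 and 3 did not overlap each other.

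PSMG1 encodes a chaperone that pairs alpha subunits early in core assembly. Its peaks were wide in clones 1 and 3, at 923 bp with 4 summits and 658 bp with 4 summits, and clone 2 had separate peaks of 235 and 86 bp in the same stretch. The folds of the strongest peak were 4.66, 4.47 and 2.88 in clones 1, 2 and 3. The fold and the p imply a summit pile-up of 30, 59 and 48 reads over a background of 5.65, 12.4 and 16.0 reads. These peaks also touched the window of BRWD1, and 1 of them, in clone 2, had its summit nearer to BRWD1.

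PSMC4 encodes an ATPase of the regulatory base. Its peaks, at 39970853 to 39971188, 39970873 to 39971185 and 39970983 to 39971185 in clones 1, 2 and 3, ended within a few bases of each other. The folds were 2.56, 4.51 and 2.15, with −log10 q of 9.27, 33.1 and 4.12. In clone 2 this peak lay in the top 0.268% of the list, the highest rank of any gene-end peak at a member. The implied pile-ups were 78, 113 and 69 reads over a background of 29.8, 24.3 and 31.6 reads. Clone 2 thus had the most reads at the summit and the lowest background.

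PSMB3, a non-catalytic beta subunit, had folds of 3.92, 3.80 and 3.34 in clones 1, 2 and 3. The pile-ups were 39, 32 and 39 reads, and the summits lay 133, 175 and 130 bp from the annotated 5′ end. Folds from separate lists were not normalized to each other.

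PSMC5, another ATPase of the base, had weaker and scattered peaks. Clone 1 had 1 peak of 580 bp with a fold of 3.89 and a −log10 q of 7.74. Clone 2 had peaks at 63827085 to 63827178 and 63827636 to 63827740, on either side of the clone 3 peak at 63827423 to 63827602. The −log10 q was 2.83 and 2.29 for the clone 2 peaks and 2.45 in clone 3, close to the lowest value in those lists. All these peaks also touched the window of FTSJ3. The clone 2 peak at 63827636 to 63827740 had its summit 2 bp from an end of FTSJ3 and 230 bp from the PSMC5 5′ end. The summits of the other peaks were nearer to PSMC5.

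PSMB1, a non-catalytic beta subunit, was called in all 3 clones only through a neighbour's peak in clones 2 and 3. There the peaks began 884 and 930 bp outside PSMB1, with summits 106 and 55 bp from an end of TBP, which encodes the TATA-binding protein. Their folds were 3.74 and 2.26. Clone 1 had that peak too, with a fold of 1.95, and also a peak over the end of PSMB1 itself, at 170553121 to 170553358, with a fold of 4.68 and a −log10 q of 5.08. With each peak counted only for the gene end nearest its summit, PSMB1 kept a peak in clone 1 alone. A peak at PSMB1 itself was thus listed in 1 clone.

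Among the beta subunit genes, the catalytic ones differed. The constitutive peptidase subunits PSMB5, PSMB6 and PSMB7 were without a gene-end peak in all 6 libraries. Their inducible counterparts PSMB8, PSMB9 and PSMB10 each had one in clones 1 and 2, with folds of 2.95 and 5.17, 3.46 and 2.93, and 2.83 and 4.52. PSMB8 and PSMB9 are not among the 9 beta members. This grouping of few genes was made after the values were seen. Of all genes, 39.1% had a gene-end peak in clone 1 and 29.6% in clone 2. The nearest peak to PSMB5 lay 18537 bp away in both clones 1 and 2, and that to PSMB6 5512 and 59711 bp away. PSMB7 had only peaks deep in the gene, 2 of them in clone 2, and none nearer than 22896 bp to an end. The PSMB10 peaks lay inside the gene, with summits 1027 and 1067 bp downstream of its 5′ end, and met the window by their edges, 914 and 959 bp from it. The more upstream of the 2 listed promoters of PSMB5, chr14:23035171-23035470 on the minus strand, is shown for comparison, with no capitals because no clone had a peak at either.
PSMB5: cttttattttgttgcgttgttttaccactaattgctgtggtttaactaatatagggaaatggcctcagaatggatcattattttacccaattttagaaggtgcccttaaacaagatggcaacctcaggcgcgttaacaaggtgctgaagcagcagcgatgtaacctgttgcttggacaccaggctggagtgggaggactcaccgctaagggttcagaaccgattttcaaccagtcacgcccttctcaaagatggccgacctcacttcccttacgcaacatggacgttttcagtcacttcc

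Of the remaining beta genes, the non-catalytic PSMB4 had a fold of 4.01 in clone 1 and 5.32 in clone 2, and 42 of the 300 bases of its listed promoter lay inside the peaks of both. PSMB2 had a single peak of 113 bp in clone 3, with a fold of 4.35. PSMB11, the catalytic subunit of the thymus-specific proteasome, had none. Its counterpart of restricted expression in the alpha ring, the testis-specific PSMA8, also had none, and its nearest peak was 32974 bp away in clone 1.

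Of the 8 alpha subunit genes, 5 had a gene-end peak in clone 1, 3 in clone 2 and 0 in clone 3. The shares of all genes in these clones were 39.1, 29.6 and 6.55%. Only PSMA2 and PSMA5 had one in 2 clones. PSMA5 had folds of 2.17 and 4.19 in clones 1 and 2, with −log10 q of 3.24 and 16.1. PSMA2 had lower folds, 2.05 and 2.47, with 55 implied reads in each clone over a background of 26.3 and 21.7 reads, and its summits lay closer to MRPL32, a mitochondrial ribosomal protein gene. PSMA3 and PSMA4 had one in clone 1 alone, with folds of 2.59 and 4.21, and PSMA7 in clone 2 alone, with 4.71. PSMA7 also had a peak inside the gene in all 3 clones, with folds of 3.61, 6.26 and 4.54. In clones 1 and 3 that peak was 1736 and 1677 bp from the nearest gene end, just outside the window.

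The 6 ATPase genes PSMC1 to PSMC6, which encode the unfolding ring of the regulatory particle, differed among themselves. PSMC4 and PSMC5 had peaks in 3 clones. PSMC2 and PSMC3 had one in clone 1 alone, with folds of 4.07 (nearer to PMPCB) and 4.84, and PSMC1 in clone 2 alone, with 4.04. PSMC6 had none, and its nearest peaks lay 1373 and 1303 bp from an end of the gene in clones 1 and 2, outside the window. PSMC3IP had none.

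The 14 PSMD genes, grouped here as non-ATPase regulatory, include assembly factors besides subunits of the regulatory particle. Of these 14, 12 had a peak in clone 1, 5 in clone 2 and 1 in clone 3. The shares of all genes fell in the same order, at 39.1, 29.6 and 6.55%. PSMD3, PSMD4, PSMD5 and PSMD8 had a peak in clones 1 and 2. At PSMD8, a lid subunit, the folds were 4.59 and 4.86, with −log10 q of 16.4 and 14.8, in the top 2.05% and 5.71% of the lists. The clones thus both ranked it high. PSMD4, a ubiquitin receptor, had folds of 3.62 and 3.83. PSMD3 had 3.18 and 2.32, and PSMD5, an assembly factor of the base, had 2.69 and 2.37. PSMD9, an assembly chaperone of the base, had folds of 3.07 in clone 1 and 4.05 in clone 3, both with the summit nearer to HPD, a gene of tyrosine breakdown with an end beside it.

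Another 8 genes of this group had a peak in 1 clone. In clone 1 alone these were PSMD2, PSMD6, PSMD7, PSMD11, PSMD12, PSMD13 and PSMD14, the last encoding the deubiquitinase of the lid, with a fold of 2.58. The folds of PSMD2, PSMD6, PSMD7, PSMD11 and PSMD12 were 4.18, 3.43, 3.23, 3.02 and 3.92. PSMD13 had the highest gene-end fold of any member, 6.26, but from 15 implied reads over a background of 1.56, and that peak lay nearer to SIRT3 than to PSMD13. A high fold here went with a low background. PSMD1, a scaffold of the base, had a peak of 68 bp in clone 2 alone, with a fold of 3.94, and PSMD10, which encodes gankyrin, had none, its nearest peak lying 147591 bp away in clone 2.

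All 5 genes of the activator group had a peak in clone 1, 3 had one in clone 2 and 0 in clone 3. For all genes these shares were 39.1, 29.6 and 6.55%. PSME3, the nuclear activator, had folds of 4.96 and 5.38 in clones 1 and 2, from only 17 and 13 implied reads. PSME2 had 2.43 and 3.09, from peaks with 53 and 52 reads whose summits lay 478 and 487 bp from an end of RNF31, and peaks of lower −log10 q closer to its own start, with folds of 2.48 and 3.31, whose summits were still nearer to RNF31 (9 and 125 bp). PSME1, which forms the interferon-induced activator with PSME2, had one in clone 1 alone, with 3.47, as did PSME4 with 2.74, in a peak nearer to ACYP2. PSME3IP1 had 2.64 and 4.14, in peaks nearer to RSPRY1. The inhibitor PSMF1 had no gene-end peak. Of the 4 core assembly chaperones, PSMG3 had a fold of 3.32 in clone 1, and PSMG2 and PSMG4 had none at a gene end.

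Some members had peaks at starts away from the annotated gene ends. The promoter table lists starts inside the gene for PSMA1, PSMA6, PSMF1, PSMG2 and PSMG4, and clone 1 had a peak within 1000 bp of such a start at each of them. At PSMF1 the listed start at 1118602 had peaks in clones 1 and 2, with folds of 3.37 and 2.79 and −log10 q of 11.8 and 5.59. That is chr20:1118352-1118651 on the plus strand, shown because the gene-end window missed it, with capitals as above.
PSMF1: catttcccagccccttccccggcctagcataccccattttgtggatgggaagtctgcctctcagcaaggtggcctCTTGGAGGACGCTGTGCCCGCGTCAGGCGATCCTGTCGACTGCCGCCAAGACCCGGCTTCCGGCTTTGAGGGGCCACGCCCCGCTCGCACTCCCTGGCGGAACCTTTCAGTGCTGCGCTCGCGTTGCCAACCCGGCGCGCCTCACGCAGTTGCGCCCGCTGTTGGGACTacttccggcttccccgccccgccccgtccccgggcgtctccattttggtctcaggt
At PSMA6, PSMG2 and PSMG4 the clone 1 folds were 2.20, 3.54 and 4.05, and the PSMG2 summit lay 20 bp from an end of CEP76. PSMA1 had a fold of 3.05 at its inner start and 3.78 at the far gene end, the latter nearer to PDE3B. With windows around every listed start in place of gene ends, a peak was found at 33, 17 and 6 of the 42 members in the table in clones 1, 2 and 3 (78.6, 40.5 and 14.3%, against 42.1, 32.0 and 6.91% of all genes in it).

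The peaks lay at the starts of the genes. For the 42 members whose strand the promoter table gives, all 31, 19 and 6 gene-end peaks of clones 1, 2 and 3 touched the window at the 5′ end and none touched that at the 3′ end alone. Over all 15813 protein-coding genes with a strand, 4.02, 7.52 and 8.13% of those with a gene-end peak had it at the 3′ end only. The strongest peak of each member had its summit at a median of −71 bp from the 5′ end in clone 1, −115 bp in clone 2 and −45.5 bp in clone 3, where negative is upstream. It was within 250 bp of that end at 23 of 29, 12 of 16 and 6 of 6 members.

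**Figure D3:**
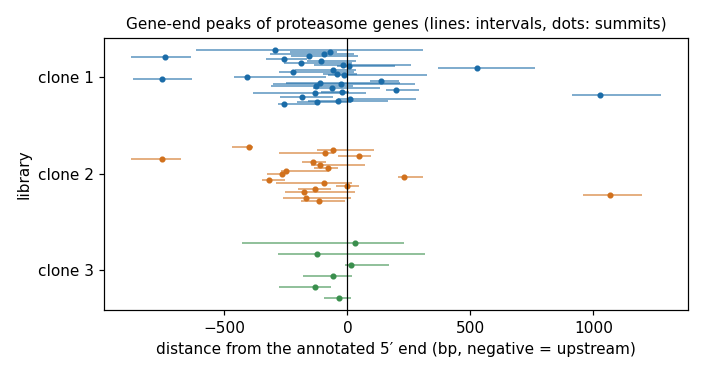
The horizontal axis is the distance in bp from the annotated 5′ end, with upstream negative; each line is the interval of a gene-end peak of a proteasome gene with a known strand, each dot its summit, and the rows are clones 1, 2 and 3. Most summits sit just upstream of 0, and the pair near 1000 bp downstream in clones 1 and 2 are the PSMB10 peaks.

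The members' median fold was close to that of all gene-end peaks in clones 1 and 3, and higher in clone 2. Each member entered with 1 peak, that of highest −log10 q, whereas every gene-end peak of the list entered the comparison, so the sides are not fully alike. In clone 1 the members' folds ran from 2.05 to 6.26 with a median of 3.45, and the median of all gene-end peaks was 3.54. In clone 2 the range was 2.32 to 5.38 with a median of 4.04, against 3.74, and 14 of 19 members lay above the overall median. In clone 3 it was 2.15 to 4.35 with a median of 2.88, against 2.98. Widths had medians of 277, 181 and 203 bp in clones 1, 2 and 3, against 307, 121 and 186 bp over all gene-end peaks. Medians of −log10 q were 5.2, 7.91 and 4.28, against 5.17, 5.73 and 3.75. These are descriptions, and no test was made of them.

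**Figure D4:**
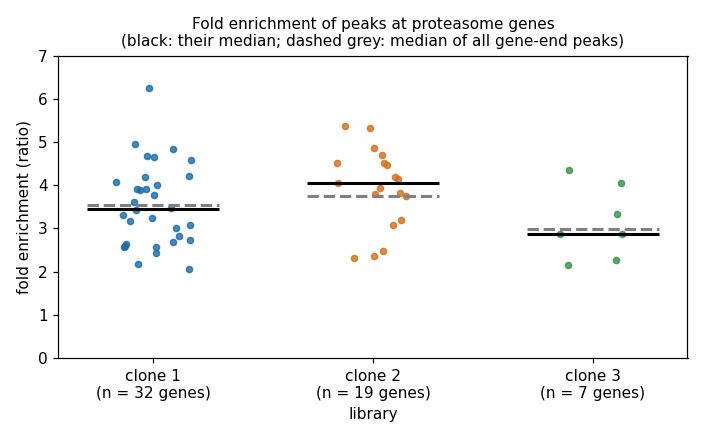
Each dot is the fold enrichment (ratio, linear axis from 0) of the strongest gene-end peak of a proteasome gene in clones 1, 2 and 3; black lines are their medians and dashed grey lines the medians of all gene-end peaks in that list. The members' medians are 3.45, 4.04 and 2.88, against 3.54, 3.74 and 2.98 for all gene-end peaks.

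Of the 36 members with a gene-end peak, 12 had one that also touched the window of another protein-coding gene. So did 7 of the 17 called in 2 or more clones. How often this holds over all genes was not counted. With each peak counted only for the nearest gene end, 23, 14 and 5 members had a peak in clones 1, 2 and 3. These were 47.9, 29.2 and 10.4% of members, against 33, 25.1 and 4.98% of all genes. In 2 or more clones 11 members were left (22.9%, against 18.3% of all genes). PSMA2, PSMD9, PSME2 and PSME3IP1 then had no clone left, their peaks going to a neighbour, PSMB1 kept 1 of its 3 clones, and PSMB10 was lost because its summits lay beyond 1000 bp.

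Letters of known promoter motifs were counted in the 52 listed promoters of the 42 members and in all 22156 promoters of protein-coding genes in the table, each 300 bases long, on both strands, with overlaps between motifs allowed. The antioxidant response element core TGACNNNGC was in 14 of 52 (26.9%, against 13.8% of all promoters). It was in 8 of 17 promoters (of 15 genes) of members with a peak in 2 or more clones, 5 of 20 of those with 1 clone and 1 of 15 of those with none (47.1, 25.0 and 6.67%). Over all protein-coding promoters the same 3 groups held it in 16.4, 13.7 and 12.6%. These groups are by the gene-end peaks of the gene: of the 15 promoters of members with none, 4 at inner starts of PSMF1, PSMA6 and PSMG2 did lie in a clone's peak. With promoters grouped by peaks on the promoter itself, a split added after seeing the data, the members' shares were 47.1% for 2 or more clones, 15.0% for 1 and 20% for none, with no steady fall. Over all genes they were then 18.2, 14.4 and 12.5%. Members called in 3 clones had 5 listed promoters, 2 of them of PSMC5, and 4 of the 5 hold it. The upstream promoter of PSMC5, not shown, does not. The share over all genes called in 3 clones was not counted, so this count is not set against a general share. Positions are counted from the listed start: TGACTTTGC from base −104 in PSMB3, TGACAGCGC from base −183 in PSMG1, and on the other strand GCTGTGTCA from base −57 in PSMC5 and GCTTGGTCA from base 28 in PSMC4. The matches of PSMB3, PSMG1 and PSMC5 lie in capitals and that of PSMC4 does not. A match is a run of letters, not a bound site, and some members have several overlapping promoters.

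The ETS core CCGGAA was in 25 of 52 promoters (48.1%, against 21.2% of all). It ran the other way among members, at 29.4% of promoters for 2 or more clones, 55.0% for 1 clone and 60.0% for none, whereas over all genes it was 30.4, 26.3 and 14.1%. By peaks on the promoter itself it was 35.3, 55.0 and 53.3% in members and 35.9, 32.1 and 13.9% in all genes. The CCAAT box was in 44.2% (against 34.6%) and the GC box GGGCGG in 69.2% (against 56.3%). Median GC content was 62.0% in members and 62.3% in all promoters.

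**Figure D5:**
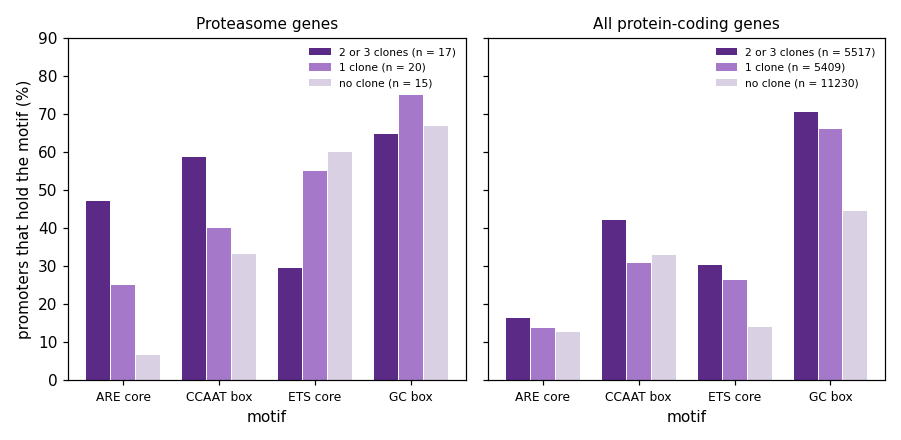
Bars give the percentage of 300-base promoters that hold each motif (ARE core is the antioxidant response element core), split by the number of clones with a gene-end peak at the gene, for proteasome genes (left) and all protein-coding genes (right). Among proteasome genes the ARE core falls from 47.1% to 6.67% and the ETS core rises from 29.4% to 60.0% as the number of clones goes down; grouped by peaks on the promoter itself, the ARE core was at 47.1, 15.0 and 20%.

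Other genes of the pathway, from a list of 32, had a peak in 2 or more clones at 17 (53.1%, against 23.3% of all genes). In clones 1, 2 and 3 a peak was listed at 21, 20 and 4 of the 32. For all genes these shares were 39.1, 29.6 and 6.55%. ADRM1, a ubiquitin receptor of the regulatory particle, had folds of 4.05, 3.15 and 3.18 in clones 1, 2 and 3. RAD23B, which carries ubiquitinated proteins to the proteasome, had a peak in all 3 clones too, with folds of 4.41, 2.32 and 2.76. Of 9 substrate delivery genes 7 had a peak in 2 or more clones, among them VCP, the segregase ATPase, with 5.04 and 2.66. NFE2L1 had 2.37 and 3.58 in clones 1 and 2, and its processing factors DDI2, a protease, and NGLY1, a deglycosylase, had 4.42 and 4.65, and 2.82 and 4.38. The ubiquitin gene UBB and the ubiquitin-activating enzyme genes UBA1 and UBA6 had one in clone 2 alone, with folds of 5.22, 5.43 and 3.35. SEM1, POMP and ECPAS, also parts or partners of the proteasome, had none in any library.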

How the data were processed

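Peak lists of 6 ATAC-seq libraries, 1 per library, were used as deposited. The submitters' processing notes name FastQC, Bowtie2, Picard and MACS2 and build GRCh38; versions, settings and any shift for the transposase: not given in the sources used here. Column 7 of the authors' lists is a fold enrichment (ratio), and columns 8 and 9 are the −log10 p and q the authors deposited. Groups and numbers came from the titles. The clones are called independent. The labels do not say how the control lines were derived, so the spread between these libraries may be technical. The permutation p, at its smallest possible value, shows only that the groups did not overlap and does not measure that spread.

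Lines with 1 interval were counted as 1 peak with its summit of highest −log10 q. A summit offset below 0 was set to 0. Gene ends came from the RefSeq gene table (GRCh38.p14), and strand and sequence from the promoter table, which held 42 of 48 members; PSMA7, PSMB1, PSMB6, PSMB7, PSMD4 and PSMG3 are not in it. A peak counted with 1 bp or more in the window. Pile-up and background were solved from the fold, (pile-up + 1)/(background + 1), and a Poisson tail p, and in each list 100% of the pile-ups came out whole (within 0.05 read). This was tested on simulated data. Python 3.11.15, pandas 2.3.3 and scipy 1.17.1 were used.

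Members, lists and motifs were chosen with earlier results of these data known. Values are given for each member with a peak in at least 2 clones, and the other members are accounted for by name; the described peak is that of highest −log10 q. No p-value was computed over the list. Some genes of the pathway list are counted but not reported here by name. Windows of 500 and 2500 bp, the 5′ end only, summits, a −log10 q of 5, a fold of 4, lists of equal length and leaving out each library were tried, and, chosen after seeing the data, listed starts, nearest gene ends and promoters grouped by their own peaks.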

Additional observations from a re-analysis of the deposited data

How the results depend on the processing

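In each alternative run, the members' share in at least 2 clones was above that of all genes. Windows of 500 and 2500 bp, the 5′ end only, summits in the window and listed starts kept each count of members within 1.5 times. With a −log10 q of 5 or more, 18 members had a peak in clone 1 and 3 in clone 3. Then 9 had one in at least 2 clones and 2 in all 3. These were 37.5, 6.25, 18.8 and 4.17% of members, against 22.5, 1.83, 11 and 1.26% of all genes. With a fold of 4 or more, members with a peak were 10 in clone 1, 10 in clone 2 and 2 in clone 3. These were 20.8, 20.8 and 4.17% of members, against 13.5, 12.8 and 0.906% of all genes. In at least 2 clones there were 4 (8.33%, against 4.17%) and in all 3 there were 0, where all genes had 0.245%. With clone lists of equal length, members with a peak were 4 in clone 1 (8.33%, against 9.53% of all genes) and 6 in clone 2 (12.5%, against 5.31%). In at least 2 clones there were 5 (10.4%, against 4.9%) and in all 3 there were 2 (4.17%, against 1.15%). Counting the nearest gene end only left 11 in at least 2 clones (22.9%, against 18.3% of all genes). Leaving out 1 library gave 5 to 17 members in at least 2 clones: 5 without clone 1, 6 without clone 2, 16 without clone 3 and 17 without each control line in turn. In all remaining clones it gave 5 to 16, the 16 without clone 3. The drops without clones 1 and 2 come with both remaining clones having to share the gene. Without clones 1, 2 and 3 in turn, the members' shares were 10.4, 12.5 and 33.3%, against 5.63, 6.21 and 22.3% of all genes.

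Over all genes the difference of 3.49 in log10(genes + 1) was 3.34 to 3.73 with 1 library left out, each with an exact permutation p = 0.1. With the replicate number as a block it was 3.49 (exact paired sign permutation, p = 0.25, the smallest for 3 pairs). Counted from the listed start, the median summit was at −71, −118.5 and −45.5 bp in clones 1, 2 and 3. The labels tie no control line to a clone, and control lines 2 and 3 listed no gene, so whether the numbers pair the libraries could not be checked.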

Other observations

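Non-coding loci with proteasome symbols were not among the members. Of 51 proteasome pseudogenes on chromosomes 1-22 and X, 0 had a gene-end peak in any clone. Of 8 long non-coding genes with such symbols, 4 had one in at least 1 clone. PSMA3-AS1 and PSMB8-AS1 had one in at least 2 clones, each in clones 1 and 2. The shares over all pseudogenes and all long non-coding genes were not computed. Whether these counts are particular to proteasome symbols was therefore not tested.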
